A study of Mus musculus with 4 samples.

Results

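The olfactory receptor genes of mouse chromosome 14 were followed in RNA that was pulled down with an antibody to TSSK2. All genes whose GENCODE vM21 symbol starts with Olfr and which lie on chromosome 14 were taken, by symbol and position. The annotation, on the genome build GRCm38, lists 42 such genes, and 40 of them were among the 21936 genes of the count table. The other two, Olfr737-ps1 and Olfr277-ps1, were not analysed here. A further 1095 olfactory receptor genes of the table lie on other chromosomes. The samples were germ cells from testes of adult C57BL/6 mice, which were cross-linked with paraformaldehyde, lysed and sonicated. The lysate was spun at low speed and its supernatant discarded. The pellet, sonicated again, was the input of the immunoprecipitations. In the TSSK2-IP group, 2 samples were immunoprecipitated with an anti-TSSK2 antibody, and in the control IgG-IP group, 2 samples were immunoprecipitated with mouse IgG. The antibody is the labelled difference between the groups, and no gene was altered in the animals. In such samples, how many cells carried an RNA, how much of it each held and how much was recovered cannot be told apart. TSSK2 is a testis-specific kinase of the late chromatoid body, a cytoplasmic RNA granule of elongating spermatids, and the comparison asks which RNAs were recovered with it above the IgG background. The labels do not say whether replicates came from separate animals, so p-values measure only the spread between these samples.

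Olfactory receptors are membrane-spanning G protein-coupled receptors, and they form the largest gene family of the mouse. They lie in clusters of tandem copies, each usually with an undivided reading frame, and in the nose a sensory neuron expresses a single receptor allele. The receptor signals through the G protein subunit Gnal, the adenylyl cyclase Adcy3 and a cyclic nucleotide-gated channel. RNA of some receptors has also been described in testis and sperm. The receptors Olfr1507, Olfr1508 and Olfr1509, which RefSeq also lists as Mor28, Mor10 and Mor83, belong to a much-studied cluster whose choice in olfactory neurons depends on an upstream enhancer, the H element.

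The 40 genes formed 3 clusters, with members of a cluster less than 1 Mb apart. The first cluster held Olfr720, Olfr31 and Olfr721-ps1 between positions 14171738 and 14410095. The second ran from Olfr722 to Olfr1507, between 49894258 and 52495749, and held 36 members. Olfr49, at 54278253 to 54284939, lay alone. Of the 40 genes, 25 were on the minus strand and 15 on the plus strand, and the longest annotated reading frame spanned between 921 and 1062 bases. The exons of 1 member, Olfr31, overlapped another annotated gene. The second cluster holds the genes with high counts: a run of 5 neighbouring genes, Olfr731 to Olfr735, all on the minus strand between 50233531 and 50348872, and Olfr1509, on the plus strand at 52442990 to 52452574, more than 2 Mb further along.

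To show how alike these receptors and their quiet neighbours are, the stretch that encodes the conserved motif at the end of the third helix is printed for each, from GRCm38 in the direction of the gene. Capitals mark codons that encode the residue of the family consensus MAYDRYVAIC, and lower case marks codons that encode another residue.
Olfr730, minus strand, chr14:50186835-50186864: ATGtcttttGACAGGTATattGCAATTTGT
Olfr731, minus strand, chr14:50238503-50238532: ATGtcttttGACAGGTATattGCCATATGT
Olfr732, minus strand, chr14:50281871-50281900: ATGGCCtttGACCGCTACattGCCATCTGC
Olfr733, minus strand, chr14:50298927-50298956: ATGGCCtttGACCGCTACattGCCATCTGC
Olfr734, minus strand, chr14:50320453-50320482: ATGGCTtttGACCGCTACgctGCCATCTGC
Olfr735, minus strand, chr14:50345940-50345969: ATGGCCTATGATAGGTATGTTGCCATATGC
Olfr736, plus strand, chr14:50393115-50393144: ATGGCCTATGACAGGttcctgGCAATCTGC
Olfr1509, plus strand, chr14:52450766-52450795: ATGGCGTATGATCGTTATGTGGCTATCTGC
Olfr1508, minus strand, chr14:52463618-52463647: ATGGCCTATGATCGCTATGTGGCTATTTGT
Olfr1507, minus strand, chr14:52490573-52490602: ATGGCCTATGATCGCTATGTGGCCATTTGT
All 10 consensus residues were encoded by Olfr735, Olfr1509, Olfr1508 and Olfr1507, 8 by Olfr732, Olfr733, Olfr734 and Olfr736, and 7 by Olfr730 and Olfr731. Over all 40 members, 10 encoded the full motif and 37 encoded at least 8 of its residues. Olfr732 and Olfr733 were identical over this stretch, and their whole coding sequences were 93.5% identical. The other pairs within the run of 5 shared between 58.3% and 62.1% of their coding bases, and Olfr1509 shared between 59.2% and 61.9% with the genes of the run.

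The 4 libraries held between 3938922 and 9858941 counts. A single count was worth 0.156 to 0.230 CPM (read counts relative to the library total, scaled by edgeR's TMM factors). A limit of 3 counts, marked throughout, corresponded to between 0.468 and 0.689 CPM and covers counting error only. Control IgG-IP replicate 1, the deepest library, stood apart. Its TMM factor was 0.652, against 1.12 to 1.18 in the other libraries. Its summed level of 12 haploid germ cell markers was 14294 CPM, against 5600 to 7203 CPM in the other libraries. Akap4 gave 5879 CPM of that sum, against 1146 to 1823 CPM elsewhere. The excess was not shared by every marker, since Tnp1 and Acrv1 were lowest in that library, at 308 and 70.2 CPM. All 12 haploid markers were tested, and 3 had a log2 fold change above 0, against 49.2% of all tested genes. The median of the 12 was -0.21. None was called by edgeR or DESeq2. In edgeR, 1 had an unadjusted p under 0.05, Tssk2, which was lower in TSSK2-IP at a log2 fold change of -1.35. The 5 markers of earlier germ cells summed to between 862 and 1530 CPM, again highest in control IgG-IP replicate 1. Ddx4 gave 865 CPM of that highest sum, while Dazl was lowest in the same library, at 22.6 CPM. Markers of other testis cells were low. The 5 Sertoli cell genes summed to 43.3 and 33.1 CPM in TSSK2-IP, and 12.6 and 35.8 CPM in control IgG-IP. The 4 Leydig cell genes summed to 27.99 and 27.97 CPM in TSSK2-IP, and 11.1 and 22.3 CPM in control IgG-IP. All 4 tested Sertoli and all 3 tested Leydig genes had a log2 fold change above 0, against 49.2% of all tested genes. Their medians were 0.57 and 0.77, and none was called or had an unadjusted p under 0.05. Peritubular, endothelial and leucocyte lists of 2, 2 and 3 genes summed to at most 61.6 CPM in any library. The part of these differences in the results was not tested.

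Most chromosome 14 receptors were close to the counting limit. In 8 members, Olfr723, Olfr724, Olfr725, Olfr746, Olfr749, Olfr1513, Olfr1512 and Olfr1511, no library had more than 3 counts, and no fold is given for them. Another 23 members had more than 3 counts in at least 1 library but were too low to be tested, with at most 16 counts in TSSK2-IP and at most 13 in control IgG-IP. Their highest value was that of Olfr743 in TSSK2-IP replicate 2. The mean CPM was higher in TSSK2-IP for 8 of these 23. The remaining 9 members passed the filter on low counts and were tested together with all other genes, 14722 in total.

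Some of the untested genes differed in where their few counts lay. Olfr729 had 3 and 8 counts in TSSK2-IP and 1 and 1 in control IgG-IP. Olfr736, the first receptor past the run of 5, had 7 and 10 counts in TSSK2-IP and 0 and 7 in control IgG-IP. In the opposite direction, Olfr727 had 0 and 0 counts in TSSK2-IP and 6 and 3 in control IgG-IP. Olfr748 had 0 and 0 counts in TSSK2-IP and 9 and 0 in control IgG-IP. The floor of 3 counts allows up to 0.622 and 0.571 CPM in the TSSK2-IP libraries for these zeros, and the differences were not tested.

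**Figure D1:**
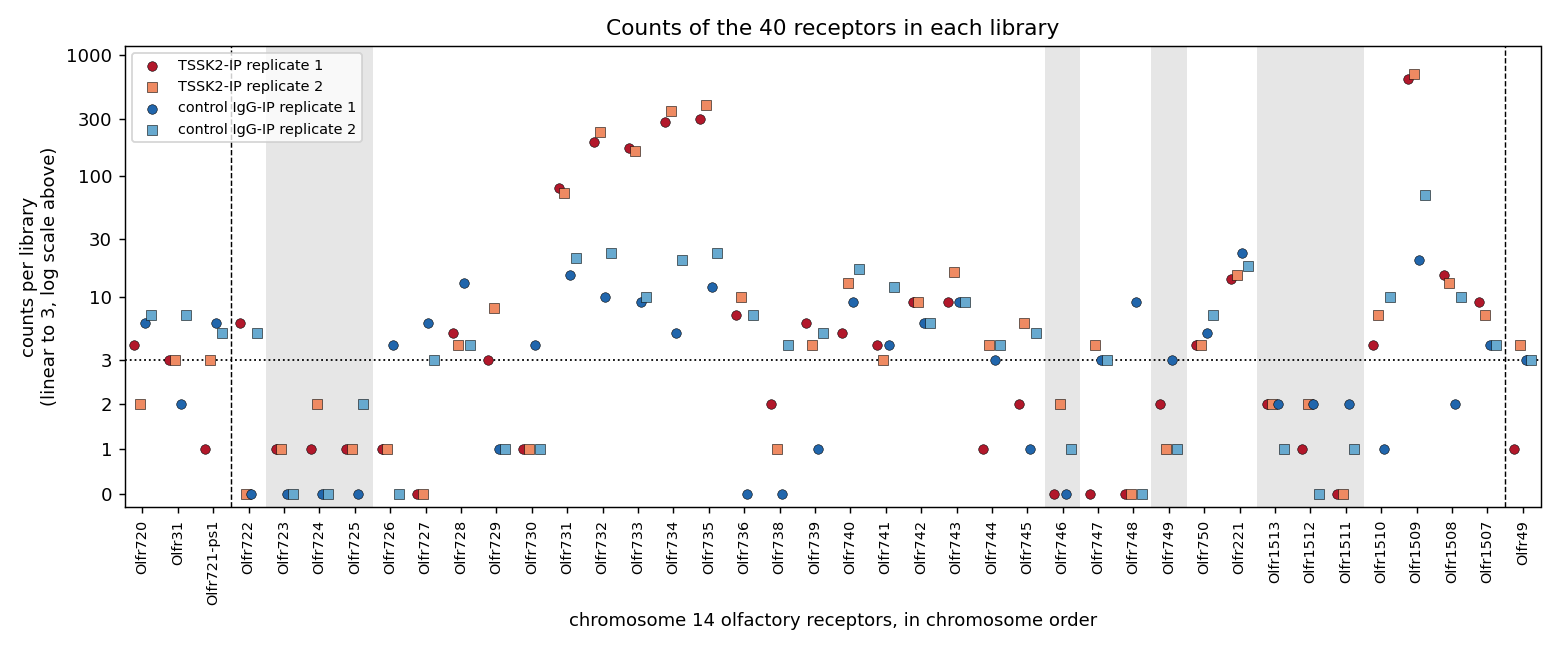
Counts of each of the 40 receptors in the 4 libraries, in chromosome order (vertical axis linear up to 3 counts and logarithmic above). Dashed lines separate the 3 clusters, the dotted line marks 3 counts and grey bands mark the 8 genes with at most 3 counts in every library. Olfr731 to Olfr735 and Olfr1509 lie between 73 and 696 counts in TSSK2-IP, and no other member is above 16 counts there.

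Of the 9 tested members, 5 were higher in TSSK2-IP. The rule was a log2 fold change of 1 or more and a Benjamini-Hochberg adjusted p of 0.05 or less, over all genes, in edgeR's quasi-likelihood test. They were Olfr732, Olfr733, Olfr734, Olfr735 and Olfr1509. None was lower. Over all tested genes, 0.693% were higher by the same rule, 102 of 14722. None was lower by edgeR or DESeq2, with 720 genes lower at an unadjusted p under 0.05 in edgeR. No member was lower at an unadjusted p under 0.05. The 9 tested genes do not stand for all 40, since a gene could pass the filter on low counts through its TSSK2-IP libraries alone. Over all 40 members, fitted without a filter, the median log2 fold change was 0.12 with edgeR and 0.04 with DESeq2, against -0.15 and -0.20 over all genes.

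Olfr1509 was the most abundant olfactory receptor RNA in TSSK2-IP. It had 639 and 696 counts in TSSK2-IP and 20 and 70 in control IgG-IP. In normalized CPM this was 132 and 132 in TSSK2-IP, and 3.12 and 16.1 in control IgG-IP. Both TSSK2-IP libraries were thus nearly equal and far above both controls, which differed 5.15-fold from each other. The log2 fold change was 3.81 (SE 0.64, n = 2 libraries per group, adjusted p = 0.0140, edgeR). Its mean in TSSK2-IP ranked 1 of 1135 olfactory receptors, both in CPM and in CPM per kb of exon.

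The neighbours of Olfr1509 were low. Olfr1508 had 15 and 13 counts in TSSK2-IP and 2 and 10 in control IgG-IP. In CPM, the lower TSSK2-IP library was only 1.08 times the higher control library, and the log2 fold change of 1.16 (SE 1.03, adjusted p = 0.618, edgeR) did not pass the test. Olfr1507 had 9 and 7 counts in TSSK2-IP and 4 and 4 in control IgG-IP, and was not tested. On the other side, Olfr1510 had 4 and 7 counts in TSSK2-IP and 1 and 10 in control IgG-IP. Olfr1513, Olfr1512 and Olfr1511 had at most 2 counts in any library. Among the 7 receptors at this end of the cluster, Olfr1509 was thus alone in passing 15 counts. The gap to Olfr1510 was 28.6 kb, that to Olfr1508 6.25 kb, and the coding sequence of Olfr1509 was 65.2% identical to that of Olfr1508, its nearest relative among the 40. Olfr1508 and Olfr1507, both with low counts, were 93.0% identical to each other in coding sequence.

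The run of 5 genes was entered and left sharply. Olfr730, 45.3 kb before it, had 1 and 1 counts in TSSK2-IP and 4 and 1 in control IgG-IP. Olfr731, the first gene of the run, had 79 and 73 counts in TSSK2-IP and 15 and 21 in control IgG-IP. All 4 values were far above those of Olfr730, and the TSSK2-IP libraries lay above the controls. In CPM the means were 15.1 ± 1.76 and 3.58 ± 1.76 (SD, n = 2 each). The log2 fold change of Olfr731, 2.10 (SE 0.53), did not pass the test, with an adjusted p of 0.111 in edgeR. With the replicate number as a block it passed, at 2.14 and an adjusted p of 0.0268, in a fit that called 1.86% of all genes higher.

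Olfr732 had 193 and 234 counts in TSSK2-IP and 10 and 23 in control IgG-IP. Every TSSK2-IP value was at least 7.57 times every control value in CPM. The log2 fold change was 3.67 (SE 0.55, adjusted p = 0.00748, edgeR). Its close copy Olfr733 had 170 and 160 counts in TSSK2-IP and 9 and 10 in control IgG-IP. The groups were separated by at least 13.3-fold, and this was the called member whose controls differed least, by 1.64-fold in CPM. The log2 fold change was 4.16 (SE 0.50, adjusted p = 0.00260, edgeR).

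Because Olfr732 and Olfr733 are near copies, part of their reads could have been assigned to the other gene or left out by the counting. Of the distinct 50-base stretches in the annotated transcripts, 3.27% for Olfr732 and 3.84% for Olfr733 also occurred in transcripts of another gene. For Olfr732 that other gene was Olfr733 alone. The windows of 150 bases before their annotated starts (GRCm38, in the direction of the gene) are shown because this pair is high in TSSK2-IP in both copies, and they shared a run of 16 bases exactly, in capitals.
Olfr732, minus strand, chr14:50284207-50284356: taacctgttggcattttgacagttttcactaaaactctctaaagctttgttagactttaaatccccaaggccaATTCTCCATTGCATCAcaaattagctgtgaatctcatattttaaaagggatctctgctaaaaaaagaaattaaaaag
Olfr733, minus strand, chr14:50301523-50301672: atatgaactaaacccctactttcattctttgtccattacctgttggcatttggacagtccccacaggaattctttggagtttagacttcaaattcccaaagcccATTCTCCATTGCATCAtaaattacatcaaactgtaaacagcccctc
Copies were common in the cluster. Of the 780 pairs of members, 20 were over 90% identical in coding sequence, and Olfr732 with Olfr733 was the one pair among them in which a member was called. Olfr723 and Olfr724, 98.5% identical, had at most 2 counts in any library, and shared 54.8% and 51.1% of their 50-base stretches with another gene. Olfr747 and Olfr749, 98.4% identical, had at most 4 counts and shared 38.5% and 44.2%. Reads of such pairs may have been left out by the counting, which was not tested.

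Olfr734 had the largest fold change of the tested members with all 4 libraries, though not without control replicate 1, where Olfr733 was higher. It had 282 and 345 counts in TSSK2-IP and 5 and 20 in control IgG-IP. The log2 fold change was 4.603 (SE 0.63, adjusted p = 0.00543, edgeR), and the controls differed 5.89-fold in CPM. Olfr735 had 297 and 386 counts in TSSK2-IP and 12 and 23 in control IgG-IP. Its log2 fold change was 4.28 (SE 0.53, adjusted p = 0.00311, edgeR). In both genes the groups did not overlap, and the lower TSSK2-IP library was at least 11.7 times the higher control. Non-overlap alone was common, since in 3180 of the 14722 tested genes both TSSK2-IP libraries lay below both controls. None of the 50-base stretches of Olfr734 or Olfr1509 occurred in another gene's transcripts, whereas 9.78% of those of Olfr735 did.

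Past Olfr735, the counts fell back within 1 gene. The interval of 32.3 kb to Olfr736 holds Tlr11, a Toll-like receptor of innate immunity on the opposite strand, with 1 and 11 counts in TSSK2-IP and 3 and 2 in control IgG-IP. The next 8 receptors, Olfr736 to Olfr744, had at most 16 counts in TSSK2-IP. Of these, Olfr740 was tested, with 5 and 13 counts in TSSK2-IP and 9 and 17 in control IgG-IP. Its groups overlapped, and the log2 fold change was -0.55 (SE 0.94, adjusted p = 0.820, edgeR). Further along, Olfr221 had 14 and 15 counts in TSSK2-IP and 23 and 18 in control IgG-IP, a log2 fold change of -0.42 (SE 0.73, adjusted p = 0.824, edgeR).

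**Figure D2:**
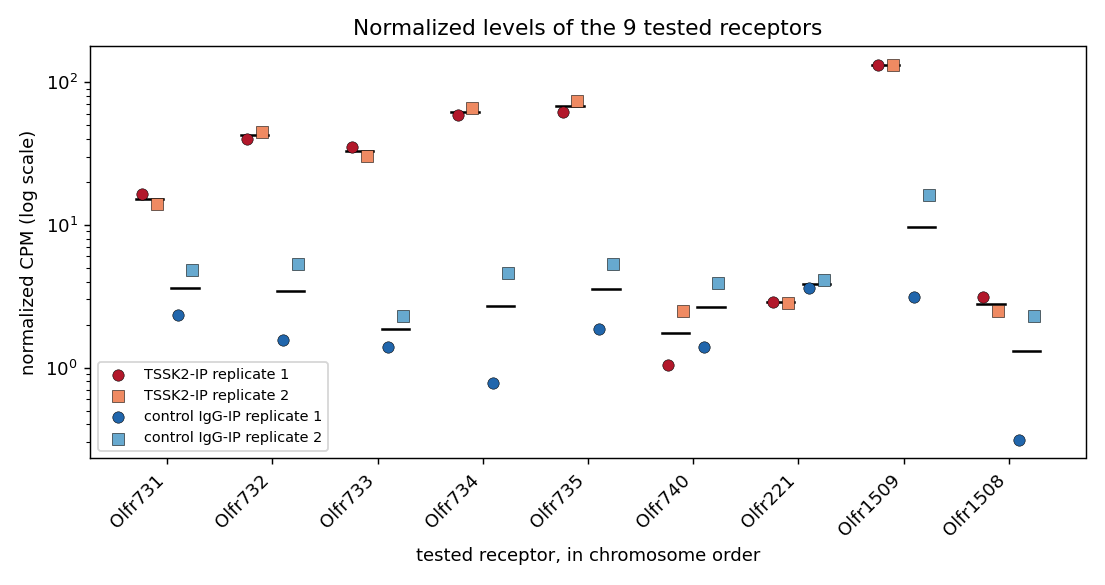
Normalized CPM (logarithmic axis) of the 9 tested receptors in each library, with black bars at the group means of 2 libraries. In Olfr731 to Olfr735 and Olfr1509 both TSSK2-IP libraries (red and orange) lie well above both control IgG-IP libraries (blue), while in Olfr740 and Olfr221 they do not.

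Levels of different genes were compared per kb of exon, with exon lengths from GENCODE vM21, which may differ from those of the annotation used for counting. In TSSK2-IP the order of mean levels was Olfr1509 at 51.4 CPM per kb, Olfr735 at 17.1, Olfr734 at 14.02, Olfr732 at 10.9, Olfr733 at 8.92 and Olfr731 at 2.703. No neighbours in this order overlapped between the 2 TSSK2-IP libraries. The closest, Olfr735 and Olfr734, lay at 15.6 to 18.6 and 13.2 to 14.8 CPM per kb. In control IgG-IP the same genes lay between 0.176 and 6.24 CPM per kb, and each neighbour in the order overlapped the next. Along the run, the level in TSSK2-IP was lowest in Olfr731, at the end next to Olfr730, and highest in Olfr735, at the other end, with Olfr733 below both Olfr732 and Olfr734.

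The controls were less alike than the TSSK2-IP libraries. Over the 9 tested members, control replicate 2 was above control replicate 1 in each, with ratios in CPM of between 1.15 and 7.36. Each fold change therefore depended on which control was used. Against control replicate 2 alone, the log2 fold change was 2.999 for Olfr732, 3.83 for Olfr733, 3.75 for Olfr734, 3.67 for Olfr735 and 3.04 for Olfr1509. Against control replicate 1 alone it was 4.69, 4.47, 6.22, 5.11 and 5.35, respectively. These 5 genes passed the test with any single library left out. Of all genes, 0.163% and 0.19% were higher without TSSK2-IP replicate 1 and 2, 5.47% without control replicate 1 and 19.4% without control replicate 2. Olfr731 passed with either control left out, at log2 fold changes of 1.65 and 2.63, and did not pass with either TSSK2-IP library left out, at 1.97 and 2.20 (adjusted p = 0.9998 and 0.9999, edgeR). Olfr1508 passed only without control replicate 2, at 3.02, and was at 0.28 without control replicate 1.

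**Figure D3:**
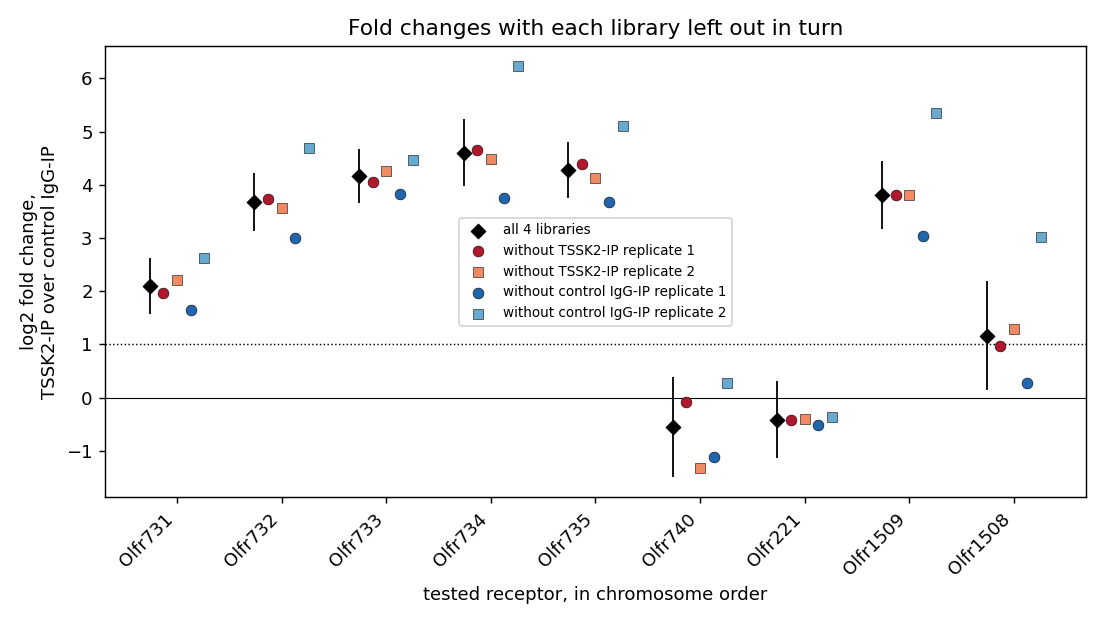
Log2 fold changes of the 9 tested receptors with all 4 libraries (black diamonds, bars are SE) and without each of the libraries. The dotted line marks the threshold of 1. The 5 called receptors stay between 2.999 and 6.22, and Olfr740 changes sign when control IgG-IP replicate 2 is left out.

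Other settings mattered more for the call than for the size of the change. With upper-quartile normalization 3 members were called, Olfr733, Olfr734 and Olfr735, against 0.136% of all genes. Olfr732 and Olfr1509 were then at adjusted p-values of 0.0642 and 0.0686 and log2 fold changes of 3.57 and 3.68. With a filter of at least 10 counts in every library, 2 of 5 tested members were called, Olfr732 and Olfr735, against 0.231% of all genes. Olfr733 and Olfr734 have fewer than 10 counts in control replicate 1 and could not enter that test, and Olfr1509 had an adjusted p of 0.0552. Without a filter, 6 of 40 members were called, with Olfr731 added, against 1.33% of all genes. DESeq2 called 5 of 40, the same genes as edgeR, against 0.654% of all genes. No member was called lower in any setting.

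Olfr731 to Olfr735 and Olfr1509 were next summed, as a description, since these 6 genes were chosen after their values were seen. Their summed level was 344 and 360 CPM in TSSK2-IP, and 11.1 and 38.4 CPM in control IgG-IP. The sum over the other 34 members was 25.7 and 29.1 CPM in TSSK2-IP, and 20.9 and 37.5 CPM in control IgG-IP. The TSSK2-IP libraries thus lay between the controls for the 34 genes and above both for the 6. The 1095 receptors on other chromosomes summed to 1388 and 1469 CPM in TSSK2-IP, and to 653 and 1414 CPM in control IgG-IP. For these the TSSK2-IP libraries were close to control replicate 2, at a mean of 1.01 times its value, and 2.19 times that of control replicate 1.

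As a share of all counts in olfactory receptors, the 6 genes made up 19.6% (95% Wilson interval 18.7 to 20.4) and 19.4% (18.6 to 20.2) in TSSK2-IP. In control IgG-IP they made up 1.62% (1.28 to 2.03) and 2.58% (2.22 to 2.99). These intervals cover counting error only. Since the 6 genes were chosen after their values were seen, the difference between the groups is a description and was not tested. The TSSK2-IP shares lay within each other's intervals, while the control shares did not overlap and were higher in replicate 2.

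**Figure D4:**
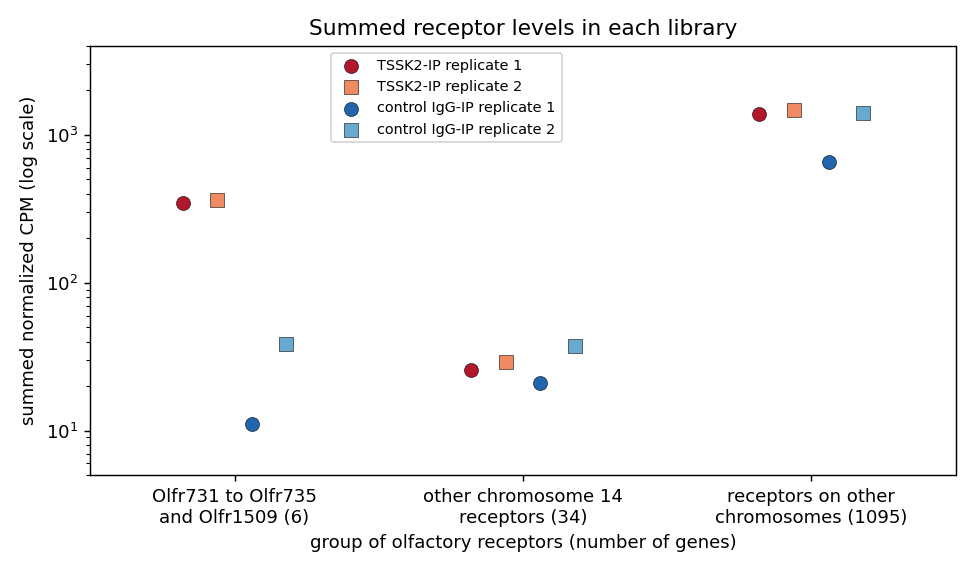
Summed normalized CPM (logarithmic axis) in each library for the 6 receptors Olfr731 to Olfr735 and Olfr1509, chosen after their values were seen, for the other 34 chromosome 14 receptors, and for the 1095 receptors on other chromosomes. The 6 receptors are at 344 and 360 CPM in TSSK2-IP and at most 38.4 CPM in control IgG-IP, while the other sums in TSSK2-IP lie close to or below those of control replicate 2.

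Of the receptors on other chromosomes, 103 were tested. By edgeR 13 were called higher, and none was called lower by edgeR or DESeq2. The median log2 fold change of the 103 was 1.37, with 84 above 0, against 49.2% above 0 over all tested genes. Of the 13, Olfr19 on chromosome 16, at 5.21, and Olfr18 on chromosome 9, at 4.69, exceeded every tested chromosome 14 member. As on chromosome 14, a gene could pass the filter through its TSSK2-IP libraries alone. Without a filter on low counts, 1070 receptors of other chromosomes entered the fit, and their median log2 fold change was -0.39 with edgeR and -0.47 with DESeq2. Of the 13, 6 lie on chromosome 9, where the number tested was not counted, so no share is given. Of all 18 called olfactory receptors, 5 were on chromosome 14, which is 55.6% of the 9 tested there. The share was 12.6% of the 103 tested elsewhere and 0.693% over all tested genes. At least 10 CPM in both TSSK2-IP libraries, a limit not planned in advance, was reached by 6 of 40 receptors on chromosome 14. Elsewhere it was reached by 20 of 1095. Those 6 are the genes chosen after their values were seen, so these counts are only a description. Of the 103 others, 32 were called without control replicate 1, 58 without control replicate 2, and 4 without either one of the TSSK2-IP replicates. No test of the difference between the chromosomes was made.

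**Figure D5:**
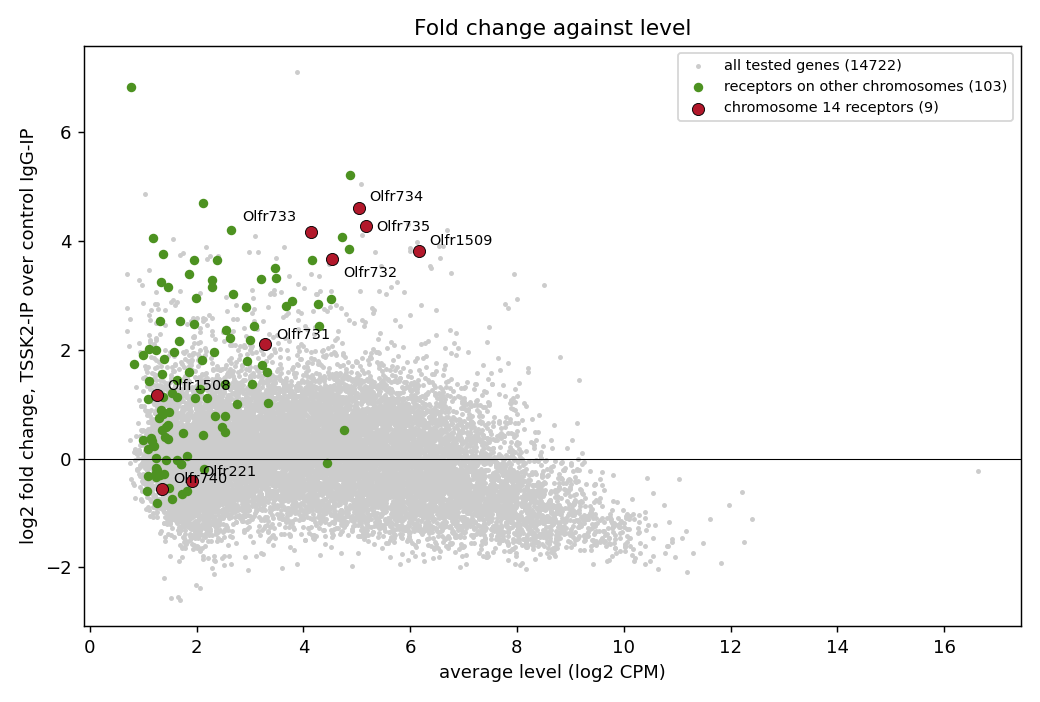
Log2 fold change of TSSK2-IP over control IgG-IP against the average level (log2 CPM) for all 14722 tested genes (grey), with the 103 tested receptors of other chromosomes in green and the 9 of chromosome 14 in red. Olfr1509 and Olfr732 to Olfr735 lie at fold changes of 3.67 to 4.603, above most genes of their level.

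Genes of other kinds around the clusters were then examined. Within the clusters and 500 kb on each side, 85 genes outside the family were annotated and in the table, and 56 were tested. One was called higher and none lower, with a median log2 fold change of 0.17. At an unadjusted p under 0.05, 6 were higher and 2 were lower. The called gene, named after its values were seen, was Vmn2r88, a vomeronasal receptor, another chemosensory receptor type, at 51410820 to 51420721. It had 191 and 157 counts in TSSK2-IP and 9 and 31 in control IgG-IP, with no overlap. Its log2 fold change was 3.08 (SE 0.60, adjusted p = 0.0312, edgeR). It lies between Olfr750, which was not tested, and Olfr221, which was not called.

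The nearest well-counted genes outside the family on each side of each cluster were not called. Psmd6, a proteasome subunit, and Slc4a7, a bicarbonate transporter, flank the first cluster and had log2 fold changes of -0.16 (SE 0.39) and 0.33 (SE 0.50). The second lies between ccdc198, 649 kb away, and Dad1, a subunit of the oligosaccharyltransferase, 1740 kb away. Their log2 fold changes were -0.71 (SE 0.42) and 1.27 (SE 0.43). Dad1, at 54235479 to 54254104, is closer to Olfr49 than to the second cluster. Dad1 had the lowest adjusted p of the 6, 0.265 by edgeR, with 470 and 513 counts in TSSK2-IP and 197 and 220 in control IgG-IP. Olfr49 lies between Abhd4, a lipase, at -0.70 (SE 0.57), and Oxa1l, a mitochondrial insertase, at -0.92 (SE 0.58). Without control replicate 2, Dad1 was higher at 1.61, and ccdc198, Abhd4 and Oxa1l were lower at -1.05, -1.28 and -1.36, past the threshold (adjusted p of at most 0.00181, edgeR). That fit called 19.4% of all genes higher and 2637 genes lower. Without control replicate 1 none of the 6 met both limits of the rule, and Abhd4 changed sign. Slc4a7 changed sign without control replicate 2.

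The machinery that olfactory neurons use with these receptors was measured in the same libraries. Of 19 olfactory signalling genes, 13 were tested, none was called by edgeR or DESeq2 in either direction, and none had an unadjusted p under 0.05 in edgeR. The median log2 fold change was 0.14, against -0.02 over all genes. Of the 13, 8 were above 0, against 49.2% of all tested genes, and the lowest were Slc24a4 at -1.10 and Gnb1 at -0.91. Gnal had 62 and 93 counts in TSSK2-IP and 44 and 45 in control IgG-IP, a log2 fold change of 0.84 (adjusted p = 0.428, edgeR). Adcy3 had 90 and 62 counts in TSSK2-IP and 40 and 63 in control IgG-IP, a log2 fold change of 0.57 (adjusted p = 0.617, edgeR). The channel subunit Cnga2 had at most 3 counts in every library, while its partner Cnga4 had 38 and 58 counts in TSSK2-IP and 23 and 35 in control IgG-IP. Another subunit, Cngb1, had 49 and 102 counts in TSSK2-IP and 33 and 103 in control IgG-IP. The chloride channel Ano2 had 42 and 52 counts in TSSK2-IP and 29 and 55 in control IgG-IP. These 3 genes were thus well above the counting limit in both groups. The neuron marker Omp had 0 and 3 counts in TSSK2-IP and 0 and 8 in control IgG-IP. Rtp1, which brings receptors to the cell surface, had 6 and 20 counts in TSSK2-IP and 13 and 9 in control IgG-IP. The 6 markers of olfactory sensory neurons summed to 34.2 and 35.2 CPM in TSSK2-IP, and to 17.2 and 31.9 CPM in control IgG-IP, mostly from Gnal and Adcy3.

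Genes that regulate receptor choice in olfactory neurons were measured as well. All 10 were tested, none was called by edgeR or DESeq2, none had an unadjusted p under 0.05 in edgeR, and the median log2 fold change was 0.02. The homeodomain factor Lhx2 had 35 and 28 counts in TSSK2-IP and 12 and 43 in control IgG-IP. Ebf1, a factor that binds the Olf/EBF motif, had the largest log2 fold change, 1.07 (adjusted p = 0.392, edgeR), with 46 and 58 counts in TSSK2-IP and 25 and 26 in control IgG-IP. The histone demethylase Kdm1a had 479 and 472 counts in TSSK2-IP and 1541 and 504 in control IgG-IP, at a log2 fold change of -0.91 (adjusted p = 0.432, edgeR).

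Finally, 4 motifs were searched on both strands in the 300 bases before the annotated start of each gene. The homeodomain motif TAATTA was found in 17.5% of the chromosome 14 receptors, 25.5% of the receptors elsewhere and 6.02% of all genes in the table. The TATA box, searched as TATAAA, was found in 25.0%, 35.7% and 13.8%, respectively. The cyclic AMP response element TGACGTCA, through which several testis-specific promoters are known to act, was found in 1 of 40 chromosome 14 receptors, Olfr727, in 0.0913% of the receptors elsewhere and in 2.01% of all genes. The Olf/EBF motif, searched as TCCC and GGGA with any 2 bases between, was found in none of the 40, in 2.37% of the receptors elsewhere and in 1.03% of all genes. Among the 6 receptors with high counts, Olfr731 and Olfr733 held the TATA box and Olfr735 the homeodomain motif, and Olfr732, Olfr734 and Olfr1509 held none of the 4. A match of TAATTA can share its last bases with one of TATAAA. A match describes the letters of these windows, and no use of them as a site was measured.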

How the data were processed

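Directional RNA libraries were made from both groups, with 2 samples each and without rRNA removal. The authors deposited raw counts per gene, with no normalization. The submitters' processing notes name Trimmomatic 0.39 for trimming, STAR 2.7.10a for mapping to GRCm38 and featureCounts 2.0.3 for counting. The strand setting and the handling of reads that match several genes are not given in the sources used here, so reads of overlapping or near-identical genes cannot be told apart. Multi-copy receptors may thus be under- or overcounted.

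Counts were tested with edgeR 4.0.16 in R 4.3.3 (filterByExpr, TMM, glmQLFit, glmQLFTest) on 14722 genes, and genes were called at an absolute log2 fold change of at least 1 and a Benjamini-Hochberg adjusted p of at most 0.05. The SE is the absolute log2 fold change divided by the square root of F. As alternatives, the replicate number entered as a block, Lars2 was removed, each library was left out, the filter was dropped or raised to 10 counts in every library, a 2-fold change was the null, scaling was by upper quartiles or DESeq2's size factors, and DESeq2 1.42.0 was the test. Data were also simulated with a single dispersion of 0.135 and with 200 of 14722 genes changed. For 16-fold changes edgeR called 200 of these and 6 others, and for 4-fold changes 88 and 2. Among the real libraries, log2 differences between replicates had an SD of 1.08 for the controls, against 0.465 for the TSSK2 pull-downs. A single dispersion does not carry this difference, so the simulation cannot give the share of changes found or falsely called here.

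Of the 21936 identifiers, 21817 were found in GENCODE vM21, which gave names, positions and exon lengths. Sequences were read from the RefSeq copy of GRCm38. Coding sequences were aligned globally with Biopython 1.88, and identity is the share of the shorter sequence. Every member that was tested was named, with low members by values or counts. The nearest well-counted gene (10 counts or more in every library) beside each cluster was named too. The signalling, regulator and marker lists were summarized, with some of their genes named. The haploid markers were Prm1, Prm2, Tnp1, Tnp2, Odf1, Akap4, Smcp, Gapdhs, Acrv1, Tssk1, Tssk2 and Tsks. Those of earlier germ cells were Ddx4, Sycp1, Sycp3, Piwil1 and Dazl. Sertoli cell markers were Sox9, Wt1, Amh, Rhox5 and Clu, and Leydig cell markers were Insl3, Cyp17a1, Hsd3b1 and Star. Members and lists were chosen with earlier results of these data known. Other libraries of the study were not analysed here.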

Additional observations from a re-analysis of the deposited data

How the results depend on the processing

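With 2 libraries per group, the precision was limited by the controls, and members near 3 counts could not be compared. The 5 called members kept their direction in all settings in which they were tested. The number of members called higher was 5, but 3 with upper-quartile normalization and 2 with at least 10 counts in every library, and between 5 and 7 with 1 library left out. The median over the members was 3.67 over the 9 tested and 2.88 over the 10 tested with Lars2 removed. It was 0.04 with DESeq2 and 0.12 without a filter, where all 40 enter. Lars2 made up 5.80% of the counts in control replicate 1 and 10.5% to 14.4% in the other libraries. Over all genes, 102 were higher and none lower. This became 20 with upper-quartile normalization, 283 higher and 24 lower without a filter, 29 with at least 10 counts, 32 against a 2-fold change, and between 24 and 2853 higher and 0 and 2637 lower with 1 library left out. The cause of these shifts was not tested. The stricter filter left 12540 genes in the test, and the fit without a filter held 21267. DESeq2's size factors moved the median of all genes from -0.02 to -0.14. With 1 library left out, Olfr740 ranged from -1.32 to 0.28, Slc4a7 from -0.019 to 0.73 and Abhd4 from -1.28 to 0.13. Where 1 library remained in a group, it was assumed to vary like the other group.

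With the replicate number as a block, 274 genes were higher and 3 lower, and 6 members were higher, with Olfr731 added. The labels do not say whether a number marks a shared lysate, and the study's methods describe dividing a lysate between TSSK2 and IgG beads, without replicate numbers. The differences between replicates 1 and 2 correlated at 0.126 between the groups over 14722 genes.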
